A study of Sus scrofa with 12 samples.

Results

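The genes described here encode 3 peptide hormones of the relaxin family (INSL3, INSL6 and RLN3) and 7 receptors of peptide hormones: the gonadotropin receptors LHCGR and FSHR, the relaxin family receptors RXFP2 and RXFP1, the prolactin receptor PRLR, the growth hormone receptor GHR and the oxytocin receptor OXTR. They were chosen by name, as 10 of the 30640 gene rows of the count tables. The tables held 9 of the names as symbols, and LHCGR was found through its Ensembl identifier, which a table of gene names pairs with that symbol. The samples were testis and epididymis of untreated adult boars, all of the inbred Banna mini-pig line (BMI), with 5 RNA-seq libraries per tissue. Both tissues came from the same 5 animals, since the file headers repeat each animal number. The protocol gives their age as 12 months and the headers as 12, 12, 11, 17 and 11 months for replicates 1 to 5. The labels name no region of the epididymis, and 2 long-read samples of pooled tissue were not analysed here.

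Luteinizing hormone from the pituitary acts on LHCGR of Leydig cells, the steroid-making cells between the seminiferous tubules, and follicle-stimulating hormone acts on FSHR of Sertoli cells, which nurse the germ cells inside the tubules. Both receptors couple to the stimulatory G protein and raise cyclic AMP, which activates protein kinase A. Leydig cells also secrete INSL3, which signals through RXFP2 and guides the descent of the testis. PRLR and GHR are cytokine receptors that signal through JAK2 and STAT5, and OXTR couples to Gq and makes smooth muscle contract.

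The libraries held 18715154 to 30211957 reads in testis and 17980578 to 21937263 in epididymis. Levels are given as counts per 1000000 reads of the library (CPM). Where a library had 0 reads of a gene, up to 3 reads, equal to 0.0993 to 0.167 CPM, remain possible from counting error alone. Markers of the labelled tissues separated the groups: 7 Leydig cell markers summed to 8325 to 13466 CPM in testis and 51.3 to 61.6 in epididymis, and 6 markers of the duct's principal cells to 19.9 to 30.3 and 5243 to 7402 CPM. Epididymis replicate 3 stood apart, with 2577 CPM of GPX5, a secreted peroxidase of the duct, against 1.56 to 52.7 in the others. The principal cell markers did not move as one there. ADAM28 (1537 CPM, against 226 to 348) and WFDC8 (88.7, against 38.1 to 54.2) were also highest in this library. CRISP1 (53.2, against 1382 to 2680) and EPPIN (918, against 2187 to 4947) were lowest in it, and LCN8 lay within the range of the others. Its germ cell markers summed to 430.3 CPM, against 20.8 to 67.9 in the other epididymis libraries and 9689 to 13363 in testis. Most of that sum was PRM1, at 290 CPM. Among the epididymis libraries SYCP3 was lowest in replicate 3 (0.137 CPM, against 0.278 to 0.821). STRA8 (0.501) lay within the range of the others (0.245 to 3.28), and the remaining germ cell markers were each highest in replicate 3. Testis replicate 4, the animal aged 17 months by its header, differed in the signal recognition particle RNA, which has no poly(A) tail. It held 7.75 CPM, against 7888 to 9134 in the other testis libraries and 1.00 to 8.27 in the epididymis libraries. On this RNA replicate 4 was thus the only testis library like those of epididymis. In the other testis libraries this difference runs along with tissue, and its part in the tissue comparisons was not tested.

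INSL3, INSL6, RLN3, LHCGR and FSHR were higher in testis, and PRLR, GHR and OXTR were higher in epididymis. RXFP2 did not pass the test over all libraries, and RXFP1 had too few reads to be tested. The test was edgeR's quasi-likelihood test over the 17225 genes that passed a filter on low counts, called at a Benjamini-Hochberg adjusted p under 0.05. Of the 9 genes tested here 8 were called, 5 as higher in testis and 3 as higher in epididymis. The background was high: 74.4% of all genes tested were called, 36.6% as higher in testis and 37.8% as higher in epididymis. The libraries of the tissues did not overlap for the same 8 genes, against 61.4% of all genes tested (32.1% with testis and 29.3% with epididymis on top). In bulk tissue, fewer cells of a type and less RNA per cell cannot be told apart.

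**Figure D1:**
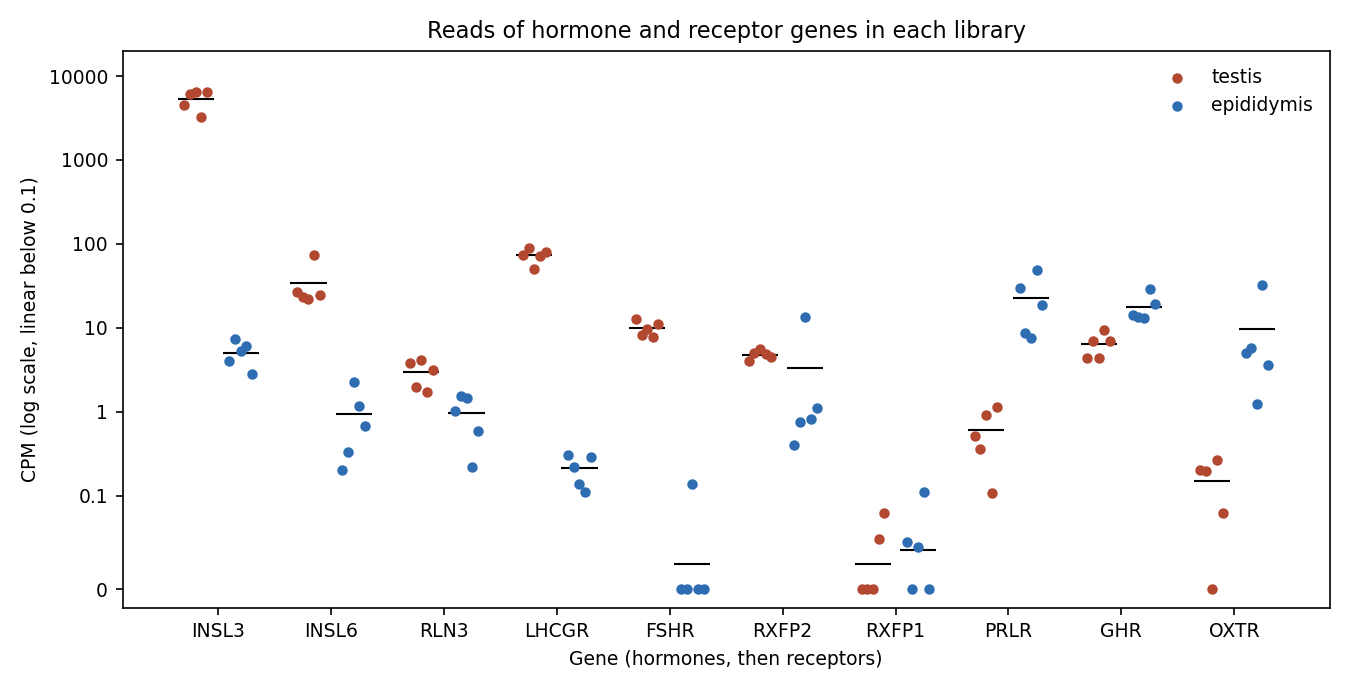
CPM of each gene (log scale, linear below 0.1) in the 5 testis and 5 epididymis libraries, 1 point per library, with black lines at the tissue means. INSL3 lies between 3212 and 6524 CPM in testis and between 2.79 and 7.34 in epididymis, and the tissues overlap for RXFP2 and RXFP1.

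Among the hormones, INSL3 (chromosome 2, 59929591 to 59931220, Sscrofa11.1) was by far the most abundant. Testis replicates 1 to 5 held 4486, 6117, 6524, 3212 and 6380 CPM. The epididymis libraries held 4.02, 7.34, 5.24, 6.06 and 2.79 CPM. The lowest testis library, replicate 4, lay 438-fold above the highest epididymis library. The log2 fold change, testis over epididymis, was 10.07 ± 0.43 (SE, n = 5 per tissue, edgeR adjusted p = 1.3e-08), and within single boars the log2 difference ran from 9.05 in boar 4 to 11.16 in boar 5. Epididymis thus held 494 INSL3 reads in all, beside low levels of other Leydig cell genes. CYP17A1, an enzyme of androgen synthesis, ranged there from 3.05 to 5.53 CPM. Per length, the ratio of INSL3 to CYP17A1 was 1.16 to 2.47 in testis and 1.59 to 2.78 in epididymis, so it overlapped between the tissues. The same ratio of LHCGR to CYP17A1 did not overlap, at 0.00566 to 0.0108 in testis and 0.0151 to 0.0732 in epididymis. STAR and FDX1, also counted as Leydig cell markers, had 15.5 to 20.7 and 23.3 to 37.8 CPM in epididymis, beside 672 to 1749 and 76.7 to 209 in testis. The part of Leydig cell RNA in the epididymal reads was not tested.

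INSL6 (chromosome 1, 216792785 to 216820197), a relative of INSL3 known from germ cells of the testis, had 27.1, 23.5, 22.0, 73.6 and 24.3 CPM in testis replicates 1 to 5. In epididymis the values were 0.204, 0.329, 2.28, 1.17 and 0.686 CPM. Testis replicate 4 held 2.71 times as much as the next testis library, and the tissues did not overlap. The fitted log2 fold change was 5.20 ± 0.63 (edgeR adjusted p = 1.4e-05), and 5.83 without epididymis replicate 3. Some transcripts of spermatids, the haploid germ cells, were also high in testis replicate 4. TNP1, a transition protein of sperm chromatin, had 2396 CPM against 629 to 766 in the other testis libraries, and the protamine PRM2 had 1464 against 229 to 296. The protamine PRM1 was not high, at 7532 CPM against 7614 to 8202. In epididymis, INSL6 was highest in replicate 3, the library with the highest germ cell marker sum. The part of germ cell content in these values was not tested. Nor was that of the boar's age or of the low signal recognition particle RNA in testis replicate 4.

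RLN3 (chromosome 2, 65149883 to 65173306), known mainly as a neuropeptide, was low in both tissues, with 3.84, 1.95, 4.12, 1.71 and 3.16 CPM in testis. Its epididymal values were 1.02, 1.53, 1.46, 0.222 and 0.588 CPM. The groups only just separated: the lowest testis library lay 1.12-fold above the highest epididymis library. The log2 difference of 1.62 ± 0.49 was called (edgeR adjusted p = 0.00975), and single boars ranged from 0.35 to 2.94. The call was lost when testis replicate 4 was the only testis library (log2 0.93, edgeR adjusted p = 0.478).

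Of the gonadotropin receptors, LHCGR (chromosome 3, 91964415 to 92023821) had 73.0, 88.8, 50.4, 72.3 and 80.1 CPM in testis. The epididymis libraries had 0.305, 0.219, 0.137, 0.111 and 0.294 CPM, which rest on 21 reads. Testis libraries lay within a factor of 1.76 of each other, and the lowest was 165-fold above the highest epididymis library. The fold change on the log2 scale was 8.39 ± 0.34 (edgeR adjusted p = 9.6e-09). In the RefSeq table LHCGR overlaps GTF2A1L, a subunit of a germ cell transcription factor, whose own row ranged from 57.8 to 140.2 CPM in testis and from 0.343 to 1.55 in epididymis. The strand setting of the counting is unknown here, so reads of a shared stretch cannot be told apart. GTF2A1L was highest in testis replicate 4, whereas LHCGR was within the range of the other testis libraries there.

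FSHR (chromosome 3, 91607236 to 91775255) lies 189159 bases from LHCGR and had 12.9, 8.21, 9.72, 7.80 and 11.2 CPM in testis. Epididymis replicates 1, 2, 4 and 5 had 0 reads and replicate 3 had 3 reads. Testis was higher 323-fold over pooled reads (95% counting interval 110.1 to 1567). The fitted log2 value of 8.14 ± 0.68 (edgeR adjusted p = 6.1e-07) depends on how the fit treats libraries without reads: without epididymis replicate 3, which leaves 0 epididymal reads, it was 10.71, and no bound can be read from it. Markers of Sertoli cells were not at 0 in epididymis: 10 of them summed to 99.0 to 212 CPM, against 309 to 354 in testis. They did not move as one. DHH, WT1 and CLDN11 were lower in every epididymis library than in any testis library, SOX8 was higher, and the rest overlapped. AMH alone had 39.6 to 71.8 CPM in epididymis and 46.8 to 98.9 in testis. The Sertoli cell content of epididymis was not tested. Per length, LHCGR exceeded FSHR by 4.56 to 9.52 times in the testis libraries.

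RXFP2 (chromosome 11, 8266898 to 8321021), the receptor of INSL3, had 4.0, 5.03, 5.55, 4.86 and 4.52 CPM in testis, a range of 1.39-fold. In epididymis it had 0.407, 0.767, 13.5, 0.834 and 1.13 CPM. Replicate 3 lay 12.0-fold above the next epididymis library and above every testis library, while the other 4 lay below every testis library. Over all libraries the log2 fold change was 0.57 ± 0.81 (edgeR adjusted p = 0.535). Without epididymis replicate 3 the receptor was higher in testis, by 2.60 ± 0.34 on the log2 scale (edgeR adjusted p = 2.1e-05), with an epididymal mean of 0.784 CPM. It was also called with the boar as a block, which uses the pairs (log2 1.92 ± 0.68, edgeR adjusted p = 0.0306), and was higher in testis in 4 of 5 boars. Markers of several cell types had their highest sum in epididymis replicate 3 among the epididymis libraries, though some single markers were higher elsewhere. Those of clear cells, the acid-secreting cells of the duct, summed to 36.1 CPM there, against 0.979 to 2.84 in the other epididymis libraries and 20 to 21.3 in testis. Most of the testis sum was SLC4A9, at 16.8 to 18.0 CPM, beside 7.07 in epididymis replicate 3. In every testis library the other clear cell markers were each lower than in that replicate. Fibroblast markers summed to 3911 CPM, against 1137 to 2912 and, in testis, 268 to 681. Endothelial markers summed to 522 CPM, against 204 to 396 and, in testis, 207 to 435. For adipocytes the sum was 59.9 CPM, against 2.90 to 16.9, and within the testis range of 58.3 to 67.4. The genes behind it differed, however: LEP had 42.6 to 54.0 CPM in testis and 1.19 in epididymis replicate 3. In every testis library ADIPOQ, PLIN1, FABP4 and CIDEC were each lower than in epididymis replicate 3. The sum of germ cell markers, also highest there among the epididymis libraries, was lower than in every testis library. The part of these cell types in the value was not tested.

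RXFP1 (chromosome 8, 47473465 to 47603332), the relaxin receptor, had 3 reads in testis and 4 in epididymis, at most 0.111 CPM in a library. No difference was detectable at this depth. RXFP3, the receptor of RLN3, had 9 reads in testis and 2 in epididymis. RXFP4, the receptor of INSL5, averaged 0.906 ± 0.582 CPM in testis libraries and 0.372 ± 0.150 in those of epididymis, and was not called by edgeR (adjusted p = 0.0684) but was by DESeq2 (adjusted p = 0.0414). With INSL3, INSL6 and RLN3 called and RXFP2 not, 3 of the 5 tested genes of the relaxin family were higher in testis and 0 in epididymis, so 60.0% were called beside 74.4% of all genes (36.6% higher in testis).

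**Figure D2:**
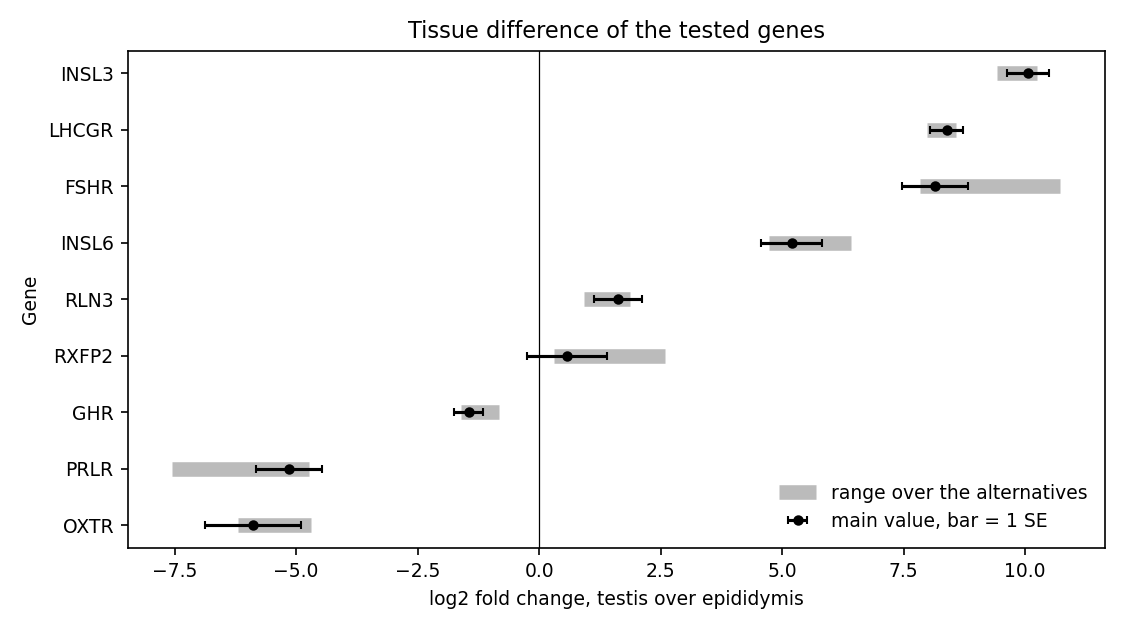
Log2 fold change, testis over epididymis, of the 9 tested genes (points, with bars of 1 SE), and in grey the range over the alternative ways to process the data. The values run from 10.07 for INSL3 to -5.90 for OXTR, and the grey range of RXFP2 reaches 2.60.

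PRLR (chromosome 16, 20637568 to 20655881) was low in testis, with 0.512, 0.364, 0.926, 0.107 and 1.15 CPM. In epididymis it had 29.9, 8.60, 7.52, 49.1 and 18.6 CPM. The epididymis libraries differed by a factor of 6.52, and the lowest lay 6.54-fold above the highest testis library. The tissue difference was -5.15 ± 0.69 on the log2 scale (edgeR adjusted p = 3.0e-05). Boar 4 had both the highest epididymal and the lowest testicular level.

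GHR (chromosome 16, 27126300 to 27422618) was expressed in both tissues, with 4.41, 6.98, 4.35, 9.40 and 6.94 CPM in testis and higher values of 14.2, 13.6, 13.2, 28.9 and 19.5 CPM in epididymis. The groups did not overlap, and the nearest libraries lay 1.41-fold apart. All 5 boars had more in epididymis, by log2 differences of -1.68 to -0.96, and the fit gave -1.45 ± 0.29 (edgeR adjusted p = 0.000744). Replicate 4 was the highest library of both tissues. Against testis replicate 4 alone the call was lost (log2 -0.82, edgeR adjusted p = 0.281).

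OXTR (chromosome 13, 65134055 to 65155543) had 0.205, 0.199, 0, 0.267 and 0.0821 CPM in testis, 17 reads in all. In epididymis it had 5.04, 5.80, 1.23, 32.9 and 3.57 CPM. Replicate 4 lay 5.66-fold above the next library, and the epididymal mean was 9.70 ± 13.1 CPM with it and 3.91 without it. The log2 fold change of -5.90 ± 0.99 (-4.70 without epididymis replicate 4) was called (edgeR adjusted p = 0.000173), except against testis replicate 4 alone (log2 -5.02, edgeR adjusted p = 0.128). Smooth muscle markers summed to 5649 CPM in epididymis replicate 4, the lowest of that tissue, against 6779 to 15758 in the others and 279.9 to 441 in testis. Markers of basal cells, at the base of the duct's epithelium, had their highest sum in it, with 1166 CPM against 343 to 969. They did not move as one. KRT5 (292 CPM), ITGA6 (44.8) and KRT15 (38.0) were highest in replicate 4. KRT14 was higher in replicates 1 and 2 (864 and 753 CPM, against 706), and TP63 in replicate 3 (96.3, against 84.6). The part of these cell types in the OXTR value was not tested.

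**Figure D3:**
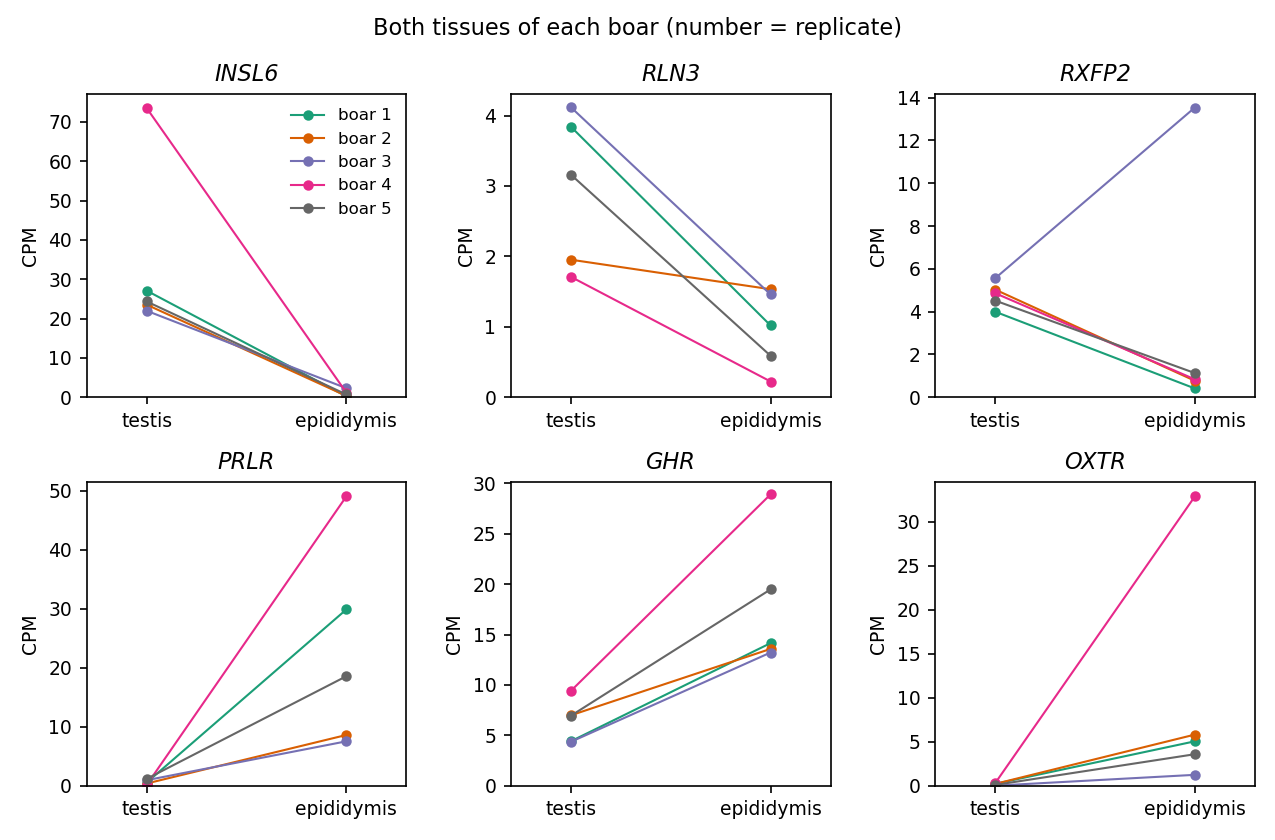
CPM of 6 genes in testis and epididymis, with 1 line per boar (numbers are replicates). In all 5 boars INSL6 and RLN3 are lower in epididymis and PRLR, GHR and OXTR are higher, and for RXFP2 boar 3 rises to 13.5 CPM while the other 4 fall.

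Levels of different genes were compared per length, as transcripts per 1000000 (TPM), with the gene lengths of the files, which run from 888 bases for INSL3 to 9827 for PRLR. In testis INSL3 reached 14449 ± 4056 TPM (SD, n = 5), rank 4 among all gene rows, followed by LHCGR with 68.6 ± 13.9 TPM. Then came INSL6 with 18.7 ± 11.6, FSHR with 10.7 ± 2.36, RLN3 with 5.75 ± 2.14, RXFP2 with 3.29 ± 0.389 and GHR with 3.20 ± 1.01 TPM. The ranges of INSL6 and FSHR overlapped, as did those of RLN3 and RXFP2 and of RXFP2 and GHR. PRLR (0.150 ± 0.105 TPM), OXTR (0.0634 ± 0.0446) and RXFP1 (0.0214 ± 0.0306) closed the order, each overlapping its neighbour among these. INSL3 transcripts outnumbered those of RXFP2 by 2589 to 5537 times in testis and by 1.52 to 38.7 times in epididymis.

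In epididymis the order was INSL3 with 12.6 ± 4.2 TPM, GHR with 8.49 ± 3.98, PRLR with 5.35 ± 4.46, OXTR with 4.08 ± 5.86, RXFP2 with 2.09 ± 3.55, RLN3 with 1.67 ± 0.901 and INSL6 with 0.487 ± 0.430. Each of these overlapped the next in range, so that no neighbours among them were separated. LHCGR had 0.184 ± 0.0753 TPM, and RXFP1 and FSHR closed the order with 0.0321 ± 0.0375 and 0.0265 ± 0.0592.

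Genes with the most similar profiles were found by the root mean square difference of centred log2 CPM over the 10 libraries. INSL3 was nearest to CYP17A1 (difference 0.41), the retinol dehydrogenase RDH12 (0.48) and CYP19A1, the aromatase that makes oestrogen (0.52). LHCGR was nearest to DMRTC2 (0.45), HORMAD2, a protein of meiotic chromosomes (0.47), and OTOG (0.49). Next to FSHR were CCDC184 (0.16), LRRC51 (0.18) and CAMKV (0.22). At low counts these profiles are partly set by the prior count of 2.

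INSL6 was nearest to PKIB, an inhibitor of protein kinase A (0.23), the transcription factor SOX5 (0.26) and the aquaporin AQP11 (0.30), which were also highest in testis replicate 4, with 83.1, 137 and 175 CPM. RXFP2 was nearest to SUSD1 (0.33), the glutamate receptor subunit GRIA3 (0.37) and the sialyltransferase ST3GAL3 (0.38), which also peaked in epididymis replicate 3, with 21.0, 49.0 and 90.8 CPM. Nearest to OXTR was NTSR1, a neurotensin receptor (0.57), with 47.0 CPM in epididymis replicate 4 and at most 4.07 elsewhere, before QPCT (0.68) and KLHL13 (0.72). GHR was close to BTBD3 (0.19), WASHC4 (0.20) and the kinase EIF2AK2 (0.21). The nearest profiles of PRLR were further away, with TMEM79 (0.65), the chromatin protein SATB1 (0.68) and the transporter ABCA5 (0.74). For RLN3 they were DYNLL1, a dynein light chain (0.46), MLLT11 (0.46) and the creatine transporter SLC6A8 (0.46).

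Transcripts of pituitary and hypothalamic hormones were rare. The list holds 15 genes, some of which act on other receptors than those described here, and 13 were analysed. LHB, the subunit specific to luteinizing hormone, was not analysed here. Of the 13 only KISS1, which drives the release of gonadotropins, passed the filter, and it was not called (log2 1.04 ± 0.66, edgeR adjusted p = 0.167). GH1, growth hormone, nevertheless had 2.70, 2.52, 1.32, 0.445 and 7.54 CPM in epididymis replicates 1 to 5, all above the testis libraries, whose highest value was 0.0821 CPM. CGA, the alpha subunit of the gonadotropins, had 0.662, 0.931, 0.0456, 0.834 and 16.5 CPM in epididymis. Testis had 0 CGA reads. Over the pooled reads, and for counting error alone, epididymis was at least 148-fold higher against a limit of 3 reads over the tissue. That bound does not cover the spread between boars, and epididymis replicate 3 had only 1 CGA read. Without epididymis replicate 5, a comparison added after seeing the data, 46 of 382 reads are left and the bound is 22.5-fold. PRL, prolactin, had 0.204, 0.110, 0.182, 0.0556 and 2.89 CPM in epididymis and 3 reads in testis. AVP, vasopressin, had 0.356, 0.986, 0, 0.0556 and 1.62 CPM and 0 reads in testis. GH1, CGA, PRL and AVP were each highest in epididymis replicate 5, where GHR and PRLR lay within the range of the other libraries.

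None of these 4 hormones passed the filter on low counts. Without it, edgeR's adjusted p was 2.9e-05 for GH1, 0.0314 for CGA, 0.00694 for PRL and 0.00981 for AVP. DESeq2 called GH1 (adjusted p = 8.7e-10) and AVP (adjusted p = 0.000230) and gave no adjusted p for CGA and PRL. POU1F1, the pituitary factor that drives GH1 and PRL, had 22 reads in epididymis and 5 in testis. OXT, oxytocin, had 13 and 1, and FSHB, the beta subunit of follicle-stimulating hormone, 1 and 15. Without the filter edgeR also called OXT higher in epididymis (edgeR adjusted p = 0.0258). In the other direction, FSHB (edgeR adjusted p = 0.0234) and, from the same list, TSHB (0.0326) and TRH (0.0231) were called higher in testis. TSHB had 23 reads in testis and 4 in epididymis, and TRH 41 and 5. AVP, POU1F1, TSHB and TRH were chosen after their values were seen. The source of these transcripts was not tested.

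**Figure D4:**
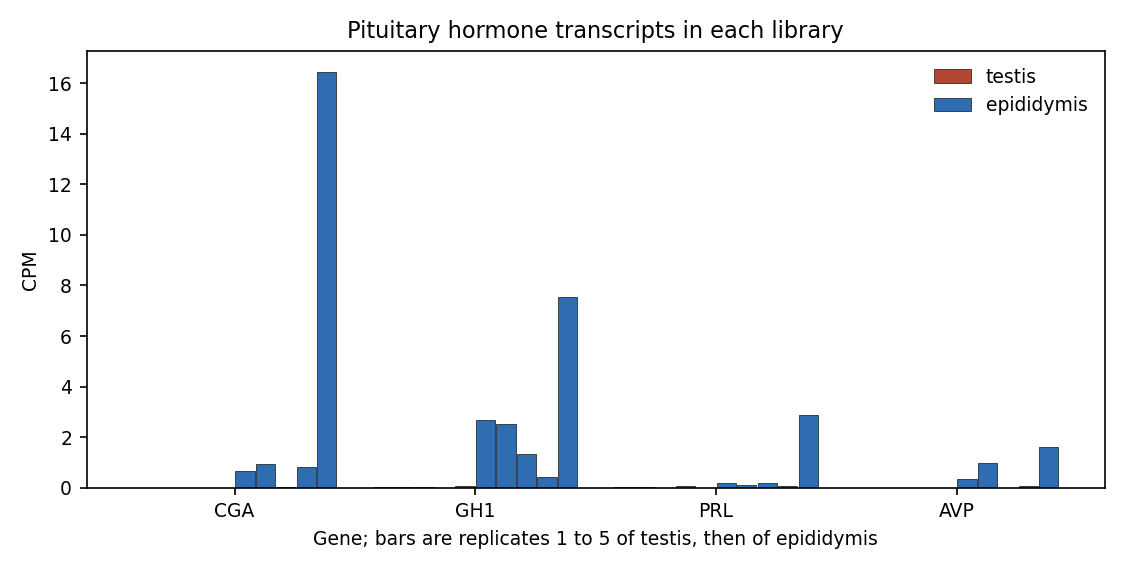
CPM of CGA, GH1, PRL and AVP in each library, as bars for testis replicates 1 to 5 and then epididymis replicates 1 to 5. Epididymis replicate 5 is the highest for CGA with 16.5 CPM, for GH1 with 7.54, for PRL with 2.89 and for AVP with 1.62.

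Behind the gonadotropin receptors, all 33 listed genes of the cyclic AMP pathway could be tested. Among them 18 were called higher in testis and 8 in epididymis, so 78.8% were called beside 74.4% of all genes. The median log2 fold change was 0.98, and -0.07 over all genes. AKAP1, an anchor of protein kinase A at mitochondria, averaged 836 ± 92.2 CPM in testis libraries and 58.0 ± 18.6 in epididymis libraries (log2 3.87 ± 0.26, edgeR adjusted p = 1.4e-07). PDE4A, which breaks down cyclic AMP, averaged 384 ± 9.91 and 28.7 ± 11.2 CPM. AKAP12, another anchor, reached 695 CPM in testis replicate 4, 265 to 314 in the other testis libraries and 48.5 to 142 in epididymis. The adenylate cyclases, which make cyclic AMP, went both ways. ADCY6 was higher in epididymis, at 259.8 ± 39.4 CPM compared with 48.4 ± 7.83 (log2 -2.41 ± 0.20, edgeR adjusted p = 6.7e-07). Of 2 cyclases chosen after their values were seen, ADCY7 had 136 ± 83.1 CPM in epididymis and 1.48 ± 0.464 in testis, and ADCY10, the soluble cyclase of sperm, 0.484 ± 0.762 and 84.4 ± 9.44.

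Of 12 genes that end receptor signalling, 3 were called higher in testis and 7 in epididymis (83.3% called beside 74.4% of all genes, median -0.83). GRK4, a receptor kinase, averaged 488 ± 74.6 CPM in testis libraries and 20.7 ± 4.15 in epididymis libraries (log2 4.56 ± 0.22, edgeR adjusted p = 2.0e-08). The arrestin ARRB1 was the other way round, at 18.3 ± 5.14 and 116 ± 25.1 CPM, as were RGS2, which shortens Gq signals, at 11.6 ± 0.952 and 144 ± 52.7, and the kinase GRK2, at 53.4 ± 4.33 and 100.3 ± 11.9. Without testis replicate 1, 4 instead of 7 of these genes were called higher in epididymis.

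Among 19 tested targets of gonadotropins and cyclic AMP, 10 were called higher in testis and 3 in epididymis (68.4% called beside 74.4% of all genes, median 1.3). CYP17A1, CYP11A1, CYP19A1 and STAR, all of steroid synthesis, were the most abundant. CYP11A1, which starts the pathway, averaged 1823 ± 524 CPM in testis libraries and 0.803 ± 0.358 in epididymis libraries (log2 11.19 ± 0.43, edgeR adjusted p = 9.6e-09). STAR, which brings cholesterol into mitochondria, differed by 55.8-fold, while CYP17A1 differed by 1465-fold and CYP19A1 by 1074-fold. These genes also mark Leydig cells, as INSL3 and LHCGR do.

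Of 26 tested signalling genes behind GHR and PRLR, 2 were called higher in testis and 8 in epididymis, 38.5% in all beside 74.4% of all genes (median -0.43). The phosphatase PTPN11 averaged 101 ± 37.7 CPM in epididymis and 27.3 ± 12.4 in testis (log2 -1.86 ± 0.33, edgeR adjusted p = 0.000282). Higher in testis were IRS1, an adaptor of insulin signalling, with 88.1 ± 22.6 CPM against 10.8 ± 8.88 (log2 3.07 ± 0.46, or 3.67 without epididymis replicate 3), and SOCS7 with 93.2 ± 13.6 against 24.0 ± 11.3. JAK2, the kinase bound by both receptors, was not called, at 7.46 ± 1.22 CPM in testis and 14.3 ± 10.7 in epididymis (edgeR adjusted p = 0.0632), nor were STAT5A (edgeR adjusted p = 0.290) and STAT5B (edgeR adjusted p = 0.597). These 3 were chosen after their values were seen.

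For the Gq pathway used by OXTR, 14 of 22 genes were called higher in epididymis and 2 in testis (72.7% called, beside 74.4% of all genes with 37.8% higher in epididymis and 36.6% in testis, median -1.31). MYLK, the kinase that starts smooth muscle contraction, averaged 718 ± 275 CPM in epididymis and 100.2 ± 15.3 in testis (log2 -2.84 ± 0.30, edgeR adjusted p = 4.5e-06). ITPR1, a calcium channel, averaged 180.3 ± 126 and 33.6 ± 7.19 CPM, whereas its relative ITPR3 was higher in testis, at 241 ± 45.9 compared with 81.1 ± 58.8. Smooth muscle markers were also higher in epididymis, as given with OXTR, and their part in these values was not tested.

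Of 18 other peptide hormone receptors tested, 7 were called higher in testis and 6 in epididymis (72.2% called, beside 74.4% of all genes with 36.6% higher in testis and 37.8% in epididymis, median 0.06). ADCYAP1R1, the receptor of the neuropeptide PACAP, averaged 102 ± 23.8 CPM in testis libraries and 0.998 ± 1.06 in epididymis libraries (log2 6.74 ± 0.66, or 7.48 without epididymis replicate 4, edgeR adjusted p = 2.6e-06). Like GHR, the receptor IGF1R of insulin-like growth factor was higher in epididymis, at 117 ± 49.8 compared with 31.5 ± 8.26 CPM. LGR4, a relative of the relaxin receptors, averaged 91.5 ± 78.2 CPM in epididymis and 21.2 ± 5.19 in testis, with its highest value in epididymis replicate 4, as for OXTR (log2 -2.06 ± 0.43, or -1.45 without that library). VIPR1, a receptor of vasoactive intestinal peptide, ranged from 1.82 to 334 CPM in epididymis and averaged 25.8 ± 6.95 in testis (log2 -2.81 ± 0.82, edgeR adjusted p = 0.00834), and it was not called with the boar as a block (edgeR adjusted p = 0.0654).

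**Figure D5:**
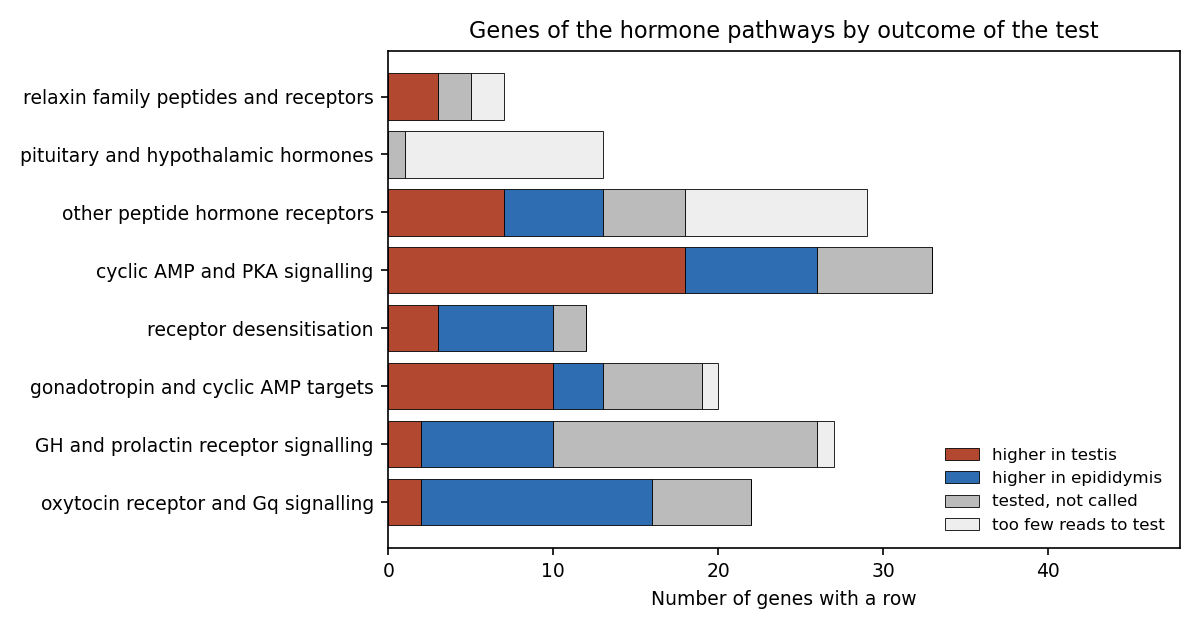
Number of genes in each list by the outcome of the edgeR test (adjusted p under 0.05), coloured by direction, with genes not called and not tested in grey tones. Cyclic AMP genes were called higher in testis in 18 of 33 cases and Gq genes higher in epididymis in 14 of 22.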

How the data were processed

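RNA was sequenced from 5 testis and 5 epididymis libraries. Cutadapt 3.0, STAR, featureCounts and Subread and the build Sscrofa11.1 are named in the submitters' processing notes. Not given in the sources used here are the annotation release and the strand and multi-mapping settings. What the authors deposited are raw counts, whole numbers per gene, with gene lengths per the file headers. Coordinates come from a RefSeq table of the same build. Libraries of a tissue differed beyond sampling noise (smallest chi-square per degree of freedom 9.525 in testis and 72.48 in epididymis), so each was 1 replicate.

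CPM and TPM were computed from the counts. The comparison used edgeR 4.0.16 in R 4.3.3 (filterByExpr, TMM, robust quasi-likelihood test, tissue as the only term) and Benjamini-Hochberg adjustment over 17225 genes. The SE is approximate, the unshrunken log2 fold change over the square root of F. The code was tested on simulated data. Alternatives were DESeq2 1.42.0, other scalings, no filter, the replicate block and left-out libraries. P-values measure the spread between boars. Same-numbered libraries come from the same boar per the file headers, although their deviations from the tissue means correlated across genes at only 0.00867 to 0.0893.

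The genes and lists were chosen with earlier results of these data known. Named are the 10 genes, the 3 nearest profiles of each that reached 1 CPM in a tissue, the 4 most abundant called genes of each list, and the ligands and receptors of the same families. Some genes that this rule names are not reported here. Marker lists without mention in the report had summed levels in testis and epididymis of 79.8 to 98.2 and 84.4 to 191 CPM (macrophages), 8.76 to 11.7 and 4.89 to 8.87 (lymphocytes) and 3.12 to 17.7 and 11.4 to 67.0 (red blood cells).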

Additional observations from a re-analysis of the deposited data

Results flagged for a closer look

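Dixon's test, which flags about 1 in 20 groups by chance for independent normal values, was applied to 78 groups of 5 libraries. Unlogged CPM from the same libraries need not meet this, so the count is not read against that rate. In 11 of the groups 1 library stood apart from the other 4. Among the hormone and receptor genes these were RXFP2 in epididymis replicate 3 (13.5 CPM, against 0.407 to 1.13), OXTR in epididymis replicate 4 (32.9 CPM, against 1.23 to 5.80) and INSL6 in testis replicate 4 (73.6 CPM, against 22.0 to 27.1). Of the pituitary hormones, CGA (16.5 CPM, against 0.0456 to 0.931) and PRL (2.89 CPM, against 0.0556 to 0.204) stood apart in epididymis replicate 5, as did AKAP1 (90.2 CPM, against 41.8 to 53.4). In testis replicate 4 AKAP12 (695 CPM, against 265 to 314) and PTPN11 (49.3 CPM, against 19.9 to 24.5) were high. The others were LGR4 in epididymis replicate 4 (229.6 CPM, against 35.9 to 66.9), IRS1 in epididymis replicate 3 (26.3 CPM, against 4.33 to 8.84) and CYP17A1 in testis replicate 2 (9242 CPM, against 5409 to 6516).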

How the results depend on the processing

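INSL3, LHCGR, FSHR, INSL6 and PRLR kept their direction and call in all 17 alternatives. RXFP2 ranged from 0.30 to 2.60 (log2) over the single left-out libraries and was called without epididymis replicate 3, without epididymis replicates 3 and 4 (2.58) and with the replicate block (1.92), which besides changed only the call of VIPR1 among the 9 tested hormone and receptor genes and the 22 pathway genes refitted. DESeq2 gave RXFP2 no adjusted p. Testis was also reduced to replicate 4, the testis library within the epididymis range for the signal recognition particle RNA. Its spread is then assumed to be that of epididymis. In that fit GHR (log2 -0.82), OXTR (-5.02) and RLN3 (0.93) lost the call, and the reason for this was not tested. Fewer samples entered that fit, so a lower count of calls is not read as a smaller tissue difference. The number of all genes it called higher in testis is not given here, so its list counts have no background in that direction. The fit tested 144 pathway genes instead of 132, among them 25 other receptors instead of 18, and 18896 genes in all instead of 17225. It called 26 pathway genes higher in testis instead of 42 and 18 in epididymis instead of 46, and 2145 of all genes higher in epididymis instead of 6506. By list it called, higher in epididymis, 2 instead of 6 other receptors, 4 instead of 8 cyclic AMP genes, 3 instead of 7 desensitising genes, 0 instead of 3 targets, 3 instead of 8 genes behind GHR and PRLR and 6 instead of 14 Gq genes, and, higher in testis, 3 instead of 7 other receptors, 1 instead of 2 genes behind GHR and PRLR and 0 instead of 2 Gq genes. Without epididymis replicates 3 and 4, 11 of 20 tested other receptors and 4 of 22 Gq genes were called higher in testis. The share of all genes called in that comparison is not given here. Of the pituitary and hypothalamic hormones, 0 were called by edgeR as reported, 3 higher in testis and 5 in epididymis without the filter, 3 and 3 with DESeq2, and up to 1 and 2 with libraries left out. DESeq2 size factors moved the median of all genes from -0.07 to 0.05, and the directions of the tested hormone and receptor genes held. Depth limits RXFP1, and FSHR, LHCGR and OXTR where they are low.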
